A study of Mus musculus with 14 samples.

Results

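Embryoid bodies labelled Foxk1 knockout (KO) that carried the Wnt inhibitor IWR1 in their titles were compared with control embryoid bodies on day 10 of differentiation, across all genes, to describe what still differed from control after the inhibitor. The comparison holds 4 of the 14 samples of the series, 2 treated KO libraries and 2 control libraries, taken by their titles. Untreated KO libraries of day 10, also 2, are given beside them. Libraries were sequenced from polyadenylated RNA with paired-end reads.

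The control line was iHA-Foxk1, a mouse embryonic stem cell line whose genotype is written Control at day 10, and the other line was a Foxk1 KO. Both lines were grown with feeder fibroblasts, which were removed by plating before differentiation, and were shaken as aggregates in mesodermal medium with fetal bovine serum, transferrin, monothioglycerol and ascorbic acid. Each genotype is represented by a single line, so an effect of Foxk1 loss and any other difference between the lines cannot be told apart. None of the 14 samples is titled as control embryoid bodies given IWR1, and neither dose nor timing of IWR1 is stated in the labels. Effects of line and drug therefore cannot be told apart in the comparison of treated KO with control. Whether the 2 libraries of each group derive from separate differentiations is not stated, so the p-values reflect the scatter among these libraries alone, which could be technical.

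Embryoid bodies are aggregates in which stem cells form derivatives of all germ layers, and in mesodermal medium part of them becomes beating heart muscle. Canonical Wnt ligands bind Frizzled and Lrp receptors and stabilise beta-catenin, which acts with Tcf and Lef factors on target genes such as Axin2. IWR1 stabilises Axin, the scaffold of the complex that degrades beta-catenin, and so lowers this signal. In heart formation Wnt signalling favours mesoderm early and opposes heart muscle formation later, and the treated group addresses whether lowering Wnt restores the heart program of the KO. Foxk1 itself is a forkhead transcription factor.

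Foxk1 (ENSMUSG00000056493.9, chromosome 5, 142401497 to 142462011, mm10) was checked first. Its level in CPM, counts scaled to a common library size, was 65.0 and 80.1 in control libraries 1 and 2, 71.3 and 41.8 in the libraries labelled KO, and 26.4 and 52.9 in the treated libraries. The treated libraries lay below both controls, but the difference was not called, with a log2 fold change of -0.87 ± 0.40 (SE) and an adjusted p of 0.186, and the libraries labelled KO overlapped control. The transcript level therefore gives no check of the KO labels at day 10, and the groups rest on the titles. Foxk2, the closest relative of Foxk1, was at 108 and 114 CPM in control and 135 and 139 CPM in treated libraries (adjusted p = 0.272).

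The 6 libraries held between 34466708 and 52747273 counts, and 3 counts corresponded to 0.0621 to 0.0827 CPM. Correlations of log CPM across genes were 0.985 within control, 0.974 between the treated libraries, and 0.912 to 0.935 between treated and control libraries. The first principal component, with 48.6% of the variance, placed the treated libraries at 102 and 66.1 and the other 4 at -53.9 to -20.0. The second, with 30.8%, separated the libraries labelled KO from control. Counts of the mitochondrial genome made up 3.00% and 3.78% of the control libraries, 2.28% and 1.55% of the libraries labelled KO, and 0.368% and 0.641% of the treated libraries. The part of this difference in the other results was not tested. In bulk RNA, fewer cells of a type and less RNA per cell cannot be told apart, and CPM are not scaled by gene length, so levels are compared between libraries and not between genes.

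Of 17022 genes tested, 1553 (9.12%) differed between treated KO and control by edgeR's quasi-likelihood test at an adjusted p under 0.05. Genes that rose numbered 509 (2.99%), of which 449 (2.64%) at least doubled, and genes that fell numbered 1044 (6.13%), of which 1009 (5.93%) at least halved. In the same fit, untreated KO differed from control in 897 genes (5.27%), 327 higher (1.92%) and 570 lower (3.35%), and treated KO differed from untreated KO in 2358 genes (13.9%). Any pair of these comparisons shares the libraries of a group, so values of the same gene in them are not independent. The median log2 fold change of all genes against control was 0.02 for the treated and 0.02 for the untreated libraries. The count rested on single libraries: it was 280 without control 1, 351 without control 2, 575 without treated 1 and 2145 without treated 2. The count for untreated KO was 63 without control 1, 151 without control 2 and 281 without KO 2. Where a group keeps 1 library, that library is assumed to vary like those of the other groups.

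**Figure D1:**
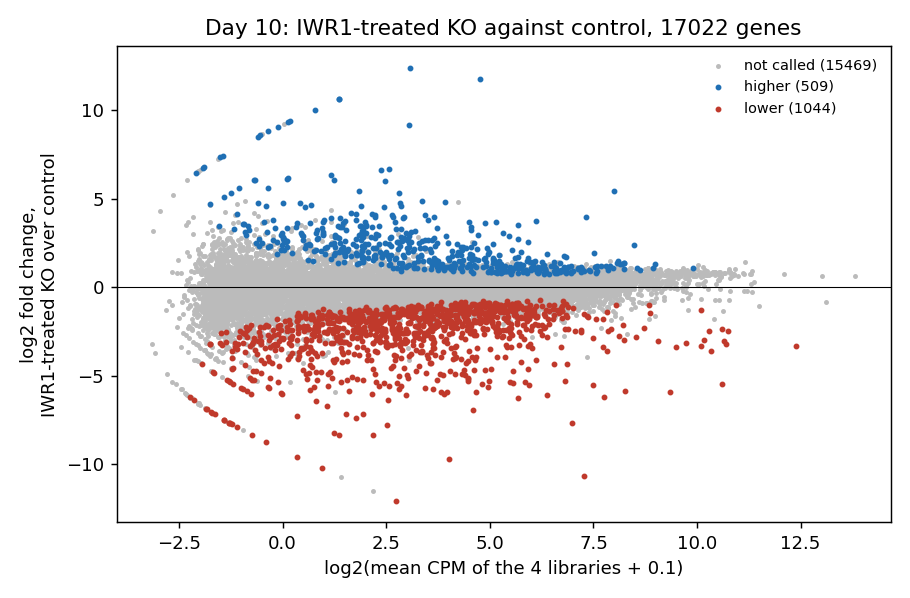
Each point is a gene tested at day 10, with the log2 of its mean CPM over the control and treated libraries plus 0.1 on the horizontal axis and the log2 fold change of treated KO over control on the vertical axis. The 509 genes that rose are blue, the 1044 that fell are red and those not called are grey.

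Among called genes at 5 CPM or more in the higher group, pseudogenes and predicted genes aside, Nepn, Tff3, Slc2a2 and Apob were among the 12 largest falls, and Sox10, Msx3, Wnt3a and Neurod4 among the 12 largest rises. Nepn, a small leucine-rich protein of foregut endoderm, was at 332 and 284 CPM in control, 19.6 and 14.8 CPM in the libraries labelled KO, and 0.145 and 0.248 CPM in the treated libraries (log2 fold change -10.63 ± 0.38, adjusted p = 0.000817). Tff3, a secreted peptide of mucous epithelium, fell from 41.1 and 22.8 to 0.0414 and 0.0276 CPM, levels below that of 3 counts in a library. Msx3, a homeobox factor of the dorsal neural tube, was at 0.07 and 0.132 CPM in control against 9.27 and 10.7 CPM in the treated libraries. All 3 genes kept their calls whichever library was left out.

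The sarcomere genes, which encode the contractile apparatus of heart muscle, stayed far below control in the treated libraries. Of 27 tested, 20 fell, 0 rose and 7 were not called, and their median log2 fold change was -2.83, against 0.02 over all genes. Falls made up 6.13% of all genes tested. In the libraries labelled KO, 23 of the 27 were called lower than control and the median was -4.69. Summed over the list, the level was 7924 and 6592 CPM in control, 782 and 1195 CPM in the libraries labelled KO, and 1271 and 1002 CPM in the treated libraries. Of the list, 26 genes lay lower in both treated libraries than in both controls, a pattern found in 33.5% of all genes tested. The number called lower was 12 without control 1, 14 without control 2, 11 without treated 1 and 17 without treated 2.

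Ttn (ENSMUSG00000051747.14, chromosome 2, 76703980 to 76982547) encodes titin, the spring of the sarcomere. It was at 106 and 119 CPM in control, 1.38 and 1.72 CPM in the libraries labelled KO, and 3.21 and 2.34 CPM in the treated libraries, a log2 fold change from control of -5.34 ± 0.27 (adjusted p = 0.00135). The treated libraries lay above the untreated ones, but that difference was not called (log2 fold change 0.84, adjusted p = 0.0703). Mybpc3, the cardiac myosin-binding protein, read 224 and 219 CPM in control, 5.19 and 5.00 CPM in the libraries labelled KO, and 10.1 and 11.7 CPM in the treated libraries. It fell against control (log2 fold change -4.34 ± 0.21, adjusted p = 0.00135), while the treated libraries were also above untreated KO (1.10, adjusted p = 0.0183). Xirp1, an actin-binding protein of the intercalated disc, showed the same order, with log2 fold changes of -4.97 against control and 1.10 against untreated KO (adjusted p = 0.0374). The calls against control held without any single library. The difference of Mybpc3 from untreated KO was lost without control 1, control 2, KO 1 or KO 2 (adjusted p between 0.0589 and 0.0654), and that of Xirp1 without any 1 of the 6 libraries (0.0638 to 0.115).

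Actc1 (ENSMUSG00000068614.7, chromosome 2, 114047282 to 114053548) encodes the cardiac actin. Control libraries held 1455 and 1191 CPM, the libraries labelled KO 9.51 and 30.3 CPM, and the treated libraries 131 and 124 CPM. The treated libraries were higher than untreated KO by a log2 fold change of 2.67 (adjusted p = 0.0259) and still lower than control by -3.38 ± 0.54 (adjusted p = 0.0179). Myh6, the alpha myosin heavy chain of heart, gave 1199 and 1383 CPM in control against 14.1 and 28.1 CPM in the treated libraries (log2 fold change -5.94 ± 0.95, adjusted p = 0.0179), and treated did not differ from untreated KO by the test (1.07, adjusted p = 0.375). Myh7, the beta chain, gave -4.34 ± 0.69, and cardiac troponin T (Tnnt2) -2.75 ± 0.31. The calls depended on single libraries for Actc1 (adjusted p = 0.063 without control 1 and 0.0897 without treated 1), Myh7 (0.0568 without control 1 and 0.0857 without treated 1) and Myh6 (0.0937 without treated 1). The difference of Actc1 between treated and untreated KO was lost without treated 1 (0.0865).

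Promoters of the sarcomere genes were searched for the CArG box, the site that serum response factor binds in muscle genes, on both strands of RefSeq windows (GRCm38.p6) from 250 bases before to 50 after each start. It was present in 7 of 32 sarcomere windows (21.9%), which belong to Actc1, Ldb3, Myl3, Myl7, Myom1 and Nebl, in 1.35% of windows of genes tested and in 1.63% of all 32851 windows. Over genes that fell it was present in 3.13% of 990 windows, and over genes that rose in 1.18% of 422. The 150 bases before the start are shown for 3 of these genes that fell against control, on the strand of the gene, with the CArG box in capitals. Actc1 lies at chr2:114052876-114053025 on the minus strand, Myom1 at chr17:71019407-71019556 on the plus strand and Ldb3 at chr14:34588682-34588831 on the minus strand.
Actc1: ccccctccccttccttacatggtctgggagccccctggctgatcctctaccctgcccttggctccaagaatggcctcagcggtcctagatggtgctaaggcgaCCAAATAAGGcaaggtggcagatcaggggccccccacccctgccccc
Myom1: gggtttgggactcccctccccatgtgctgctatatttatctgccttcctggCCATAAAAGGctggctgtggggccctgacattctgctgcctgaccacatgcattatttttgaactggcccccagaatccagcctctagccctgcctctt
Ldb3: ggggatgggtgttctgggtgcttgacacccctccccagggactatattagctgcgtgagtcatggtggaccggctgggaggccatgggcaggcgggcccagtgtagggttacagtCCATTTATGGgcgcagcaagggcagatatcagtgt
The match is a description of the letters and not evidence of binding in these cells. Myom1, a protein of the sarcomere M-band, fell from 122 and 115 to 10.9 and 11.0 CPM. Ldb3, a protein of the Z-disc, fell from 112 and 92.2 to 3.52 and 7.66 CPM. Myl7, the atrial light chain, which also holds the box, was at 724 and 363 CPM in control and 117 and 60.5 CPM in the treated libraries and was not called (adjusted p = 0.0599).

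Among 20 heart transcription factors, 7 fell, 2 rose and 11 were not called, with a median log2 fold change of -1.0. Over all genes tested, 6.13% fell and 2.99% rose. Nkx2-5 (ENSMUSG00000015579.5, chromosome 17, 26838664 to 26845009), an early regulator of heart muscle, was at 18.7 and 15.5 CPM in control, 0.243 and 0.437 CPM in the libraries labelled KO, and 1.72 and 1.24 CPM in the treated libraries. It was thus higher in treated than in untreated KO (log2 fold change 2.13, adjusted p = 0.0212) and remained below control (-3.52 ± 0.35, adjusted p = 0.00523). Tbx5, a regulator of the left ventricle and atria, was at 40.0 and 37.7 CPM in control, 6.43 and 4.76 CPM in the libraries labelled KO, and 6.31 and 6.86 CPM in the treated libraries. Its treated and untreated KO levels did not differ by the test (0.23, adjusted p = 0.501), and the calls of Nkx2-5 and Tbx5 against control held without any single library. The difference of Nkx2-5 between the KO groups was lost without control 1 (0.0514), KO 1 (0.068) or treated 1 (0.0809).

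Tbx20 and Hand1 were lower in the treated libraries, while the libraries labelled KO overlapped control. Tbx20, which maintains chamber muscle, was at 132 and 160 CPM in control, 135 and 86.2 CPM in the libraries labelled KO, and 17.2 and 24.3 CPM in the treated libraries (log2 fold change from control -2.81 ± 0.31, adjusted p = 0.00644). Hand1, a regulator of left ventricle and extraembryonic mesoderm, was at 77.5 and 74.1, then 79.5 and 71.1, then 21.8 and 9.23 CPM, and fell against control and against untreated KO (adjusted p = 0.0217 and 0.0193). Gata4, a zinc finger factor of heart and endoderm, was at 114 and 115 CPM in control and 29.8 and 56.6 CPM in the treated libraries, a difference that just missed the threshold (-1.41 ± 0.34, adjusted p = 0.0531). Mef2c fell from 67.1 and 69.0 to 27.7 and 26.3 CPM. Irx3, a homeobox factor of ventricular conduction and also of neural tube, rose from 4.87 and 4.77 to 23.8 and 29.8 CPM. The other factor that rose was Irx5. The number of factors called lower was 3 without control 1 and 4 without control 2, and the calls ended without control 1 and without control 2 for Hand1 (adjusted p = 0.0885 and 0.0775) and Mef2c (0.0948 and 0.0983).

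Of 24 genes of heart excitation and calcium handling, 13 were also lower than control and 1 was higher (Gja1). Their median log2 fold change was -1.99, against -1.75 in untreated KO. Of all genes tested, 6.13% were lower and 2.99% higher. Ryr2, the calcium release channel, was at 37.7 and 56.6 CPM in control, 6.09 and 3.94 CPM in the libraries labelled KO, and 2.84 and 3.28 CPM in the treated libraries (log2 fold change -3.95 ± 0.34, adjusted p = 0.00457). Hcn4, the pacemaker channel, fell from 72.4 and 78.9 to 5.98 and 9.70 CPM. The sodium-calcium exchanger gene Slc8a1 fell from 316 and 318 to 35.4 and 50.9 CPM and was also lower than in untreated KO, at 92.7 and 74.3 CPM (adjusted p = 0.048), a call lost without each library but treated 2 (0.0724 to 0.177). Among 12 genes of heart hormones and muscle energy supply, 8 fell and 0 rose, with a median of -2.19. Pgam2, a muscle glycolytic enzyme, fell from 124 and 74.7 to 14.7 and 11.9 CPM. Nppa, the atrial hormone, was low throughout, at 1.59 and 2.17 CPM in control and 0.393 and 0.138 CPM in treated libraries. Its call (adjusted p = 0.0378) ended whichever of the 4 libraries compared was left out, with adjusted p of 0.143, 0.213, 0.0503 and 0.0549 without control 1, control 2, treated 1 and treated 2. Counts of genes called lower in these lists were 7 and 1 without control 1, 7 and 3 without control 2, and 9 and 4 without treated 1.

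**Figure D2:**
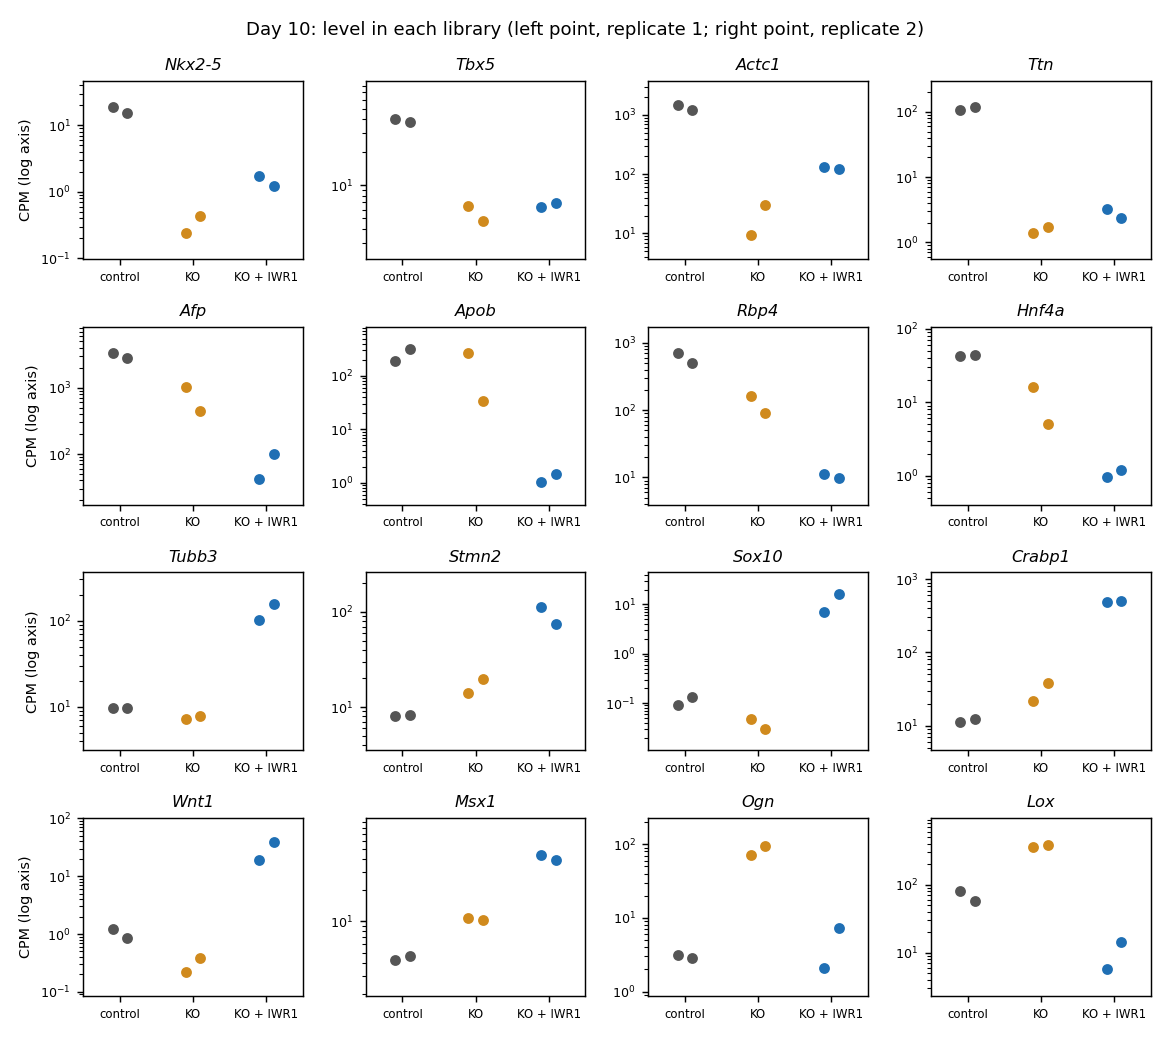
The level of 16 genes is drawn for each library in CPM on a log axis, with control, the libraries labelled KO and the treated libraries from left to right and both replicates as points. Levels below 0.03 CPM are drawn at 0.03. Ttn and Nkx2-5 lie below control in both KO groups, Afp and Apob are lowest in the treated libraries, Tubb3 and Stmn2 are highest there, and Ogn is high in untreated KO.

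Plasma protein and visceral endoderm genes had the lowest median of the 41 lists described, a log2 fold change of -4.78. Visceral endoderm is the outer layer of embryoid bodies, and like fetal liver it secretes lipoproteins and transport proteins. Of 22 genes tested, 17 fell, against 6.13% of all genes tested, 0 rose and 5 were not called. The summed level was 6187 and 5499 CPM in control, 2470 and 1003 CPM in the libraries labelled KO, and 128 and 307 CPM in the treated libraries. In untreated KO, 6 of the 22 were called lower than control, with a median of -1.99. Those called lower after IWR1 numbered 14 without control 1, 14 without control 2 and 11 without treated 1.

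Rbp4 (ENSMUSG00000024990.13, chromosome 19, 38116629 to 38125281), the retinol carrier of plasma, was at 702 and 510 CPM in control, 162 and 92.0 CPM in the libraries labelled KO, and 11.1 and 9.73 CPM in the treated libraries. It fell against control (log2 fold change -5.86 ± 0.39, adjusted p = 0.00253) and against untreated KO (-3.61, adjusted p = 0.00675). Apob, the backbone of lipoproteins, was at 188 and 312 CPM in control and 268 and 33.6 CPM in the libraries labelled KO, which overlapped control, and at 1.04 and 1.49 CPM in the treated libraries. Its call (-7.64 ± 1.12, adjusted p = 0.0136) was lost without treated 1 (adjusted p = 0.085). Afp, the alpha-fetoprotein, was at 3343 and 2778 CPM in control, 1040 and 450 CPM in the libraries labelled KO, and 42.7 and 98.6 CPM in the treated libraries (-5.44 ± 0.63, adjusted p = 0.00712). The transcription factor Hnf4a, which drives these genes in liver and visceral endoderm, fell from 42.0 and 43.9 to 0.973 and 1.19 CPM. Fgb, Apoa1 and Foxa3 fell by log2 fold changes of -5.42, -5.49 and -4.53. Apart from Apob, the calls of the genes named in this paragraph held without any single library.

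A binding motif of Hnf1 factors, which act in liver and visceral endoderm, was searched on both strands of the same windows. It was found in 0.399% of all windows, 0.267% of windows of genes tested, 1.72% of windows of genes that fell (17 of 990) and 0.237% of windows of genes that rose (1 of 422). Of 23 windows of the plasma protein list, 1 held it, that of Afp. Its 150 bases before the start, chr5:90490564-90490713 on the plus strand, are shown with the motif in capitals, whose first base lies 105 bases before the start.
Afp: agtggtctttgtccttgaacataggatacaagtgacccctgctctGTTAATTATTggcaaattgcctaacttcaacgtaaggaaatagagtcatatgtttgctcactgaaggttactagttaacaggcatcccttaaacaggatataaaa
The core of a Tcf and Lef motif, ATCAAAG, was in 2.61% of windows of genes that rose, 2.53% of those that fell, 2.69% of those of all genes tested and 3.73% of all windows. For the forkhead letters GTAAACA these shares were 3.08%, 3.64%, 2.66% and 3.65%. None of the searched motifs contains another.

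Gut and epithelial genes fell as well, 11 of 20 with 0 higher and a median log2 fold change of -1.83, close to the -1.87 of untreated KO. Falls made up 6.13% of all genes tested. Foxa1, a pioneer factor of endoderm, was at 46.3 and 48.2 CPM in control, 4.17 and 2.05 CPM in the libraries labelled KO, and 5.07 and 3.58 CPM in the treated libraries (log2 fold change from control -3.44 ± 0.38, adjusted p = 0.00666). The epithelial splicing factor Esrp2 fell from 19.2 and 19.3 to 2.5 and 3.61 CPM and keratin 7 (Krt7) from 33.2 and 33.0 to 9.67 and 7.88 CPM. Foxa2, the related factor of node, floor plate and endoderm, was different. It was at 18.1 and 17.9 CPM in control, 3.27 and 2.08 CPM in the libraries labelled KO and 20.9 and 13.6 CPM in the treated libraries, which overlapped control (-0.06 ± 0.31, adjusted p = 0.903) and were above untreated KO (2.68, adjusted p = 0.0112). The difference of Foxa2 between the KO groups held without any single library. The list's count of genes called lower was 3 without control 1, 3 without control 2 and 8 without treated 1.

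Single genes of endoderm and liver reached very low levels. Ihh, the hedgehog ligand of visceral and gut endoderm, was at 13.7 and 12.4 CPM in control, 5.39 and 1.86 CPM in the libraries labelled KO, and 0.352 and 0.248 CPM in the treated libraries (log2 fold change -5.41 ± 0.61, adjusted p = 0.00679). Fgfr4, a receptor that is active in liver, fell from 11.6 and 13.1 to 0.559 and 1.10 CPM. Serpina1c, a plasma protease inhibitor, was at 12.9 and 13.2 CPM in control, a sum of 1051 counts, and had 0 counts in both treated libraries. Taking 3 counts in the group as the floor, it was at least 368-fold lower, and its call was lost without control 1, control 2 or treated 1 (adjusted p = 0.0597, 0.054 and 0.0729). Slc2a2, the glucose transporter of liver, and Habp2, a plasma protease, fell from 9.52 and 8.24 to 0 and 0.0551 CPM and from 47.1 and 48.8 to 0.186 and 0.634 CPM. Liver enzymes of drug metabolism reached similar lows, with Ugt2b35, Cyp2c68 and Cyp3a13 at 6.57 to 14.1 CPM in control and 4, 3 and 4 counts in the treated libraries together. Afm, a plasma carrier of vitamin E, fell from 12.2 and 10.3 to 0.0414 and 0.248 CPM. The call of Slc2a2 was lost without treated 1 (adjusted p = 0.0624).

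**Figure D3:**
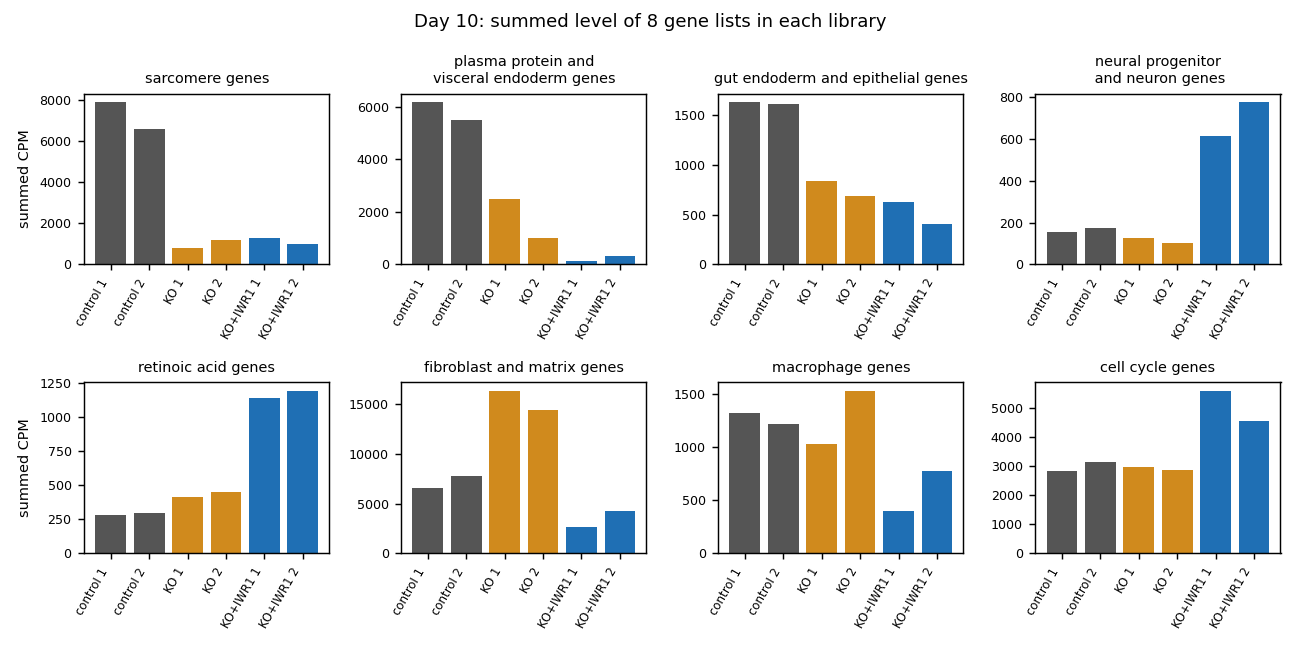
Summed CPM of the tested genes of 8 lists are drawn as bars for each of the 6 libraries, with axes that start at 0. Sarcomere bars are low in both KO groups, plasma protein bars are lowest in the treated libraries, and neural and retinoic acid bars are highest there.

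Neural genes moved the other way, with 18 of 30 higher in treated KO than in control, 0 lower and a median log2 fold change of 2.71. Rises made up 2.99% of all genes tested. Untreated KO had 0 of the 30 higher and 5 lower, among them Pax6, Map2, Six3 and Otx2, with a median of -0.72. The call of Pax6 in untreated KO was lost whichever library was left out, with log2 fold changes between -1.78 and -1.33. Summed levels were 154 and 172 CPM in control, 126 and 102 CPM in the libraries labelled KO, and 615 and 777 CPM in the treated libraries. Of the 30 genes, 25 were higher in both treated libraries than in both controls, against 33.6% of all genes tested. The count of rises was 8 without control 1 and 10 without control 2.

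Tubb3 (ENSMUSG00000062380.4, chromosome 8, 123411424 to 123422015), the tubulin of young neurons, was at 9.75 and 9.61 CPM in control, 7.28 and 7.90 CPM in the libraries labelled KO, and 101 and 155 CPM in the treated libraries (log2 fold change from control 3.73 ± 0.27, adjusted p = 0.00309). Pax6, a homeobox factor of neural progenitors, rose from 1.26 and 1.43 to 12.8 and 13.1 CPM, with 0.388 and 0.547 CPM in the libraries labelled KO. Stmn2, a growth cone protein, rose from 8.00 and 8.32 to 114 and 74.4 CPM. The progenitor factor Sox1 and the neurofilament gene Nefl rose by log2 fold changes of 3.12 ± 0.30 and 2.97, and the proneural factor Neurod4 by 5.46 ± 0.75.

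The anterior brain regulators Six3 and Otx2 did not differ between the treated libraries and control by the test. Six3 was at 1.77 and 1.64 CPM in control, had no count in the libraries labelled KO, and was at 4.10 and 2.18 CPM in the treated libraries, so that the treated libraries were above control without a call (adjusted p = 0.218). Otx2, a factor of forebrain and midbrain, was at 14.4 and 11.4, then 2.01 and 2.13, then 41.7 and 13.7 CPM in the same order. Both genes were called lower in untreated KO than in control and higher in treated than in untreated KO (adjusted p = 0.00853 and 0.0145 for the latter). The calls against untreated KO held without any single library. Those of untreated KO against control were lost without control 1 for Six3 (0.0555), and without control 1, control 2, KO 1 or KO 2 for Otx2 (0.096 to 0.18).

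Neural crest is a migratory population from the dorsal neural tube that forms peripheral neurons and glia, pigment cells and parts of the face. Over all genes tested, 2.99% rose and 6.13% fell. Of 13 crest and glial genes, 6 rose, 1 fell (Mitf) and 6 were not called, with a median log2 fold change of 0.57. Sox10 (ENSMUSG00000033006.10, chromosome 15, 79154908 to 79165240), its glial regulator, was at 0.0933 and 0.132 CPM in control, 0.0485 and 0.0273 CPM in the libraries labelled KO, and 6.91 and 16.3 CPM in the treated libraries (6.65 ± 0.61, adjusted p = 0.00509). Pax3, which marks dorsal neural tube and crest, rose from 0.536 and 0.794 to 15.7 and 23.7 CPM, and Tfap2a, an early crest factor, from 1.91 and 2.41 to 12 and 16.1 CPM. The log2 fold change of Msx3 was 6.60 ± 0.57, and the dorsal interneuron gene Olig3 rose from 0.327 and 0.344 to 8.67 and 18.1 CPM. Chrna3, a nicotinic receptor subunit of autonomic ganglia, rose from 0.327 and 0.238 to 3.75 and 10.1 CPM. The calls of Pax3 and Tfap2a were lost without control 1 (adjusted p = 0.0597 and 0.068). Those of Olig3 and Chrna3 were lost without control 1 (0.0694 and 0.058) and without control 2 (0.0631 and 0.0617). The crest list counted 1 rise without control 1 and 3 without control 2.

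Retinoic acid, made from vitamin A, patterns hindbrain, spinal cord and heart tube. Of 15 genes of its transport, synthesis and breakdown, 6 rose and 0 fell, with a median of 0.86. Rises made up 2.99% of all genes tested. Crabp1 (ENSMUSG00000032291.8, chromosome 9, 54764748 to 54773110), a retinoic acid binding protein, was at 11.1 and 12.4 CPM in control, 21.5 and 38.7 CPM in the libraries labelled KO, and 487 and 511 CPM in the treated libraries (log2 fold change 5.41 ± 0.35, adjusted p = 0.00221). Its relative Crabp2 was at 21.5 and 17.5, then 16.8 and 25.6, then 305 and 297 CPM (3.95 ± 0.28, adjusted p = 0.00303). Crabp1 and Crabp2 were also above untreated KO, by log2 fold changes of 4.05 and 3.83. Aldh1a2, the main enzyme that makes retinoic acid in the embryo, was at 11.6 and 20.9 CPM in control, 49.8 and 61.4 CPM in the libraries labelled KO and 54.1 and 61.3 CPM in the treated libraries. Its call after IWR1 (adjusted p = 0.0211) was lost without control 1 (0.107) and without treated 1 (0.0621). The list counted 2 rises without control 1, 3 without control 2 and 3 without treated 1.

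Hox genes assign position along the head to tail axis, with low numbers acting in hindbrain and high numbers in the trunk. Of 30 tested, 18 rose and 0 fell, with a median log2 fold change of 2.02, where 2.99% of all genes tested rose. Of the 30, 28 lay higher in both treated libraries than in both controls, against 33.6% of all genes tested. In untreated KO 12 rose against control, with a median of 1.39. Hoxb9 (ENSMUSG00000020875.9, chromosome 11, 96271457 to 96276595), a trunk gene, was at 0.28 and 0.715 CPM in control, 3.18 and 2.92 CPM in the libraries labelled KO, and 12.6 and 14.7 CPM in the treated libraries (4.78 ± 0.45, adjusted p = 0.00519). Hoxc5 had the same order, at 0.35 and 0.609, then 2.77 and 3.06, then 6.02 and 10.5 CPM. Hoxb9 and Hoxc5 were higher in treated than in untreated KO (adjusted p = 0.0207 and 0.0496). Those differences were lost for Hoxb9 without KO 1, KO 2 or treated 1 (0.0589 to 0.0642) and for Hoxc5 without any 1 of the 6 libraries (0.0598 to 0.15), while the calls of both against control held. The list counted 3 rises without control 1 and 10 without control 2.

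Hoxa2 and Hoxb1, which act in the hindbrain, were higher in the treated libraries than in control and in the libraries labelled KO. Hoxa2 was at 0.583 and 1.24 CPM in control, 1.5 and 1.91 CPM in the libraries labelled KO, and 12.1 and 16.1 CPM in the treated libraries, above control (3.95 ± 0.43, adjusted p = 0.00644) and above untreated KO (3.04, adjusted p = 0.0127). Hoxb1 was at 0.187 and 0.98, then 0.267 and 0.711, then 12.5 and 14.8 CPM, and its call against control was lost without control 1 (adjusted p = 0.0541) and without treated 1 (0.0535). Hoxa10, a gene of the posterior trunk, was at 6.69 and 8.53 CPM in control, 38.3 and 52.5 CPM in the libraries labelled KO and 31.8 and 38.5 CPM in the treated libraries, with no call between the KO groups (adjusted p = 0.331). Hoxc10, of the same region, was at 3.43 and 4.53, then 37.6 and 37.7, then 7.68 and 19.4 CPM, and did not differ from control after IWR1 by the test (adjusted p = 0.056). The call of Hoxa10 against control was lost without control 1 (adjusted p = 0.0642).

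**Figure D4:**
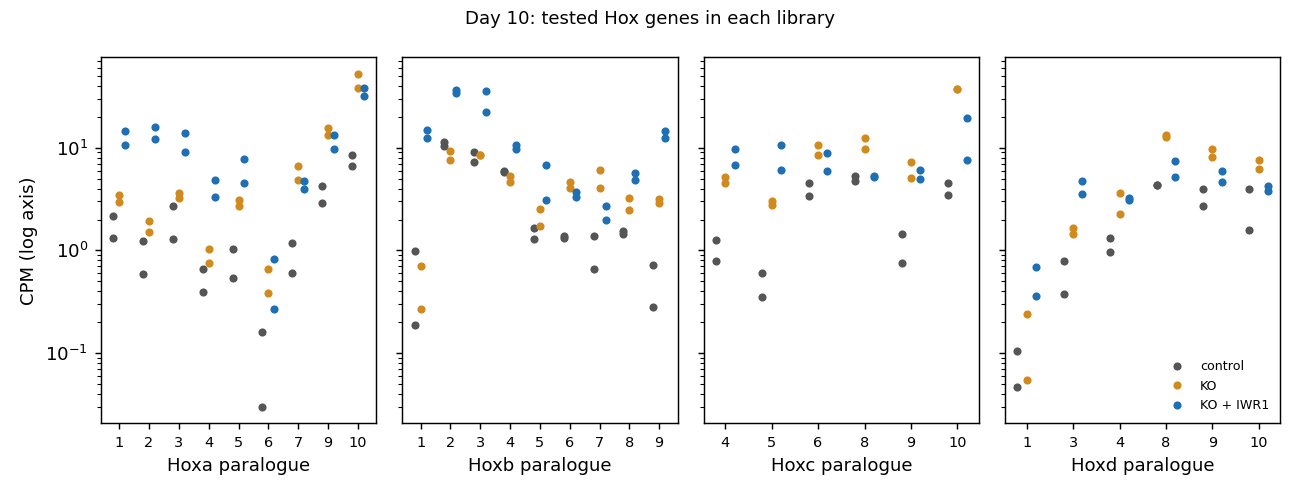
Levels of the 30 tested Hox genes are drawn by cluster and paralogue number in CPM on a log axis, with both libraries of control, KO and treated KO as points and levels below 0.03 drawn at 0.03. Hoxa2 and Hoxb1 are high in the treated libraries, and Hoxc10 is highest in the libraries labelled KO.

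Within the Wnt pathway, several ligands rose. Of 18 tested, 6 rose, 1 fell and 11 were not called, with a median log2 fold change of 1.12 against -0.09 in untreated KO. Over all genes tested, 2.99% rose and 6.13% fell. Wnt1 (ENSMUSG00000022997.9, chromosome 15, 98789857 to 98793837), a ligand of midbrain and dorsal neural tube, was at 1.21 and 0.847 CPM in control, 0.218 and 0.383 CPM in the libraries labelled KO, and 19.1 and 39.1 CPM in the treated libraries (4.81 ± 0.48, adjusted p = 0.00524). Wnt3a (ENSMUSG00000009900.7, chromosome 11, 59248033 to 59290752), a ligand of tail bud and dorsal neural tube, rose from 0.0233 and 0.318 to 5.11 and 16.4 CPM, and Wnt3 from 0.443 and 0.741 to 4.86 and 8.08 CPM. Wnt2, a ligand of early heart and lung mesoderm, fell from 63.6 and 45.8 to 17.9 and 16.3 CPM, with 70.0 and 90.2 CPM in the libraries labelled KO. Without control 1 the calls of Wnt3a, Wnt3 and Wnt2 were lost (adjusted p = 0.0663, 0.0694 and 0.0931), and without treated 1 that of Wnt2 was lost (0.0591). The ligand list counted 1 rise without control 1 and 3 without control 2, without treated 1 and without treated 2.

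Among 22 receptors and agonists 3 rose (Fzd9, Fzd10 and Rspo4) and 1 fell, with a median of -0.15. Rises made up 2.99% and falls 6.13% of all genes tested. The Frizzled receptor gene Fzd10, expressed in dorsal neural tube, rose from 6.74 and 9.03 to 32.3 and 44.2 CPM (log2 fold change 2.28 ± 0.28), with 6.57 and 5.44 CPM in the libraries labelled KO. Fzd4, a receptor of endothelium and other tissues, fell from 61.6 and 67.0 to 24.6 and 31.5 CPM. Fzd10 lost its call without control 1 (adjusted p = 0.0663), and Fzd4 without control 1, control 2 or treated 1 (0.168, 0.2 and 0.152). The receptor list had no rise without control 1 and 1 without control 2 or treated 1. The 19 intracellular genes of the pathway had 0 rises and 0 falls by edgeR's quasi-likelihood test, 1 at an unadjusted p under 0.05 and 1 fall by DESeq2, with a median of -0.11.

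Secreted Wnt inhibitors rose in 6 of 18 cases and fell in 0, with a median of 0.65. Rises made up 2.99% of all genes tested. Sfrp2, which binds Wnt ligands, was at 12.7 and 14.4 CPM in control, 40.4 and 31.4 CPM in the libraries labelled KO and 68.9 and 107 CPM in the treated libraries (2.70 ± 0.29, adjusted p = 0.00614). Sost, an inhibitor at Lrp receptors, rose from 0.117 and 0.106 to 2.55 and 3.28 CPM. Dkk1, which blocks the same receptors, was at 8.02 and 5.75 CPM in control and 47.6 and 20.1 CPM in the treated libraries, and Draxin, an inhibitor and axon guidance protein of dorsal neural tube, rose from 1.40 and 1.06 to 8.03 and 15.8 CPM. The list counted 2 rises without control 1, 2 without control 2 and 4 without treated 1. Draxin lost its call without control 1 or 2 (adjusted p = 0.0565 and 0.0673), and Dkk1 without control 1, control 2 or treated 1 (0.108, 0.154 and 0.0589).

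Genes known as Wnt targets were not lower as a group. Of 20 tested, 6 rose, 1 fell and 13 were not called, with a median of 0.50 against -0.36 in untreated KO. Over all genes tested, 2.99% rose and 6.13% fell. Axin2 (ENSMUSG00000000142.15, chromosome 11, 108920349 to 108950783), the general feedback target, was at 15.5 and 17.3 CPM in control, 15.1 and 11.3 CPM in the libraries labelled KO, and 21.6 and 42.7 CPM in the treated libraries. The treated libraries lay above control without a call (0.97 ± 0.35, adjusted p = 0.122). Lef1, a factor and target of the pathway, was at 13.5 and 13.9, then 8.10 and 6.07, then 18 and 19.8 CPM, above untreated KO (adjusted p = 0.0176) and not called against control (0.214). The first of these was lost without KO 2 (0.055) or treated 1 (0.0538).

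Of the targets that rose, Msx1 and Twist1 are also genes of neural crest and dorsal tissue. Msx1 was at 4.27 and 4.63 CPM in control, 10.7 and 10.3 CPM in the libraries labelled KO and 44.1 and 39.4 CPM in the treated libraries (log2 fold change 3.23 ± 0.21, adjusted p = 0.00221), and Twist1 rose from 9.91 and 11.7 to 44.6 and 56.1 CPM. Ccnd1, the cyclin that drives entry into the cell cycle, was at 116 and 112, then 39.0 and 31.7, then 215 and 225 CPM in the same order. It was called lower in untreated KO (adjusted p = 0.0105) and higher in treated KO (0.0327), the former lost without control 1 (0.0911) or control 2 (0.0643). Rnf43, a ligase that removes Frizzled receptors and a feedback target, was the 1 target that fell, from 11.6 and 11.9 to 1.93 and 2.84 CPM. Calls of Ccnd1 and Rnf43 ended without control 1 (0.218 and 0.0879), without control 2 (0.243 and 0.0862) and without treated 1 (0.0885 and 0.0816), and that of Ccnd1 also without treated 2 (0.0538). The list counted 2 rises without control 1 and 2 without control 2, against 4 without treated 1.

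**Figure D5:**
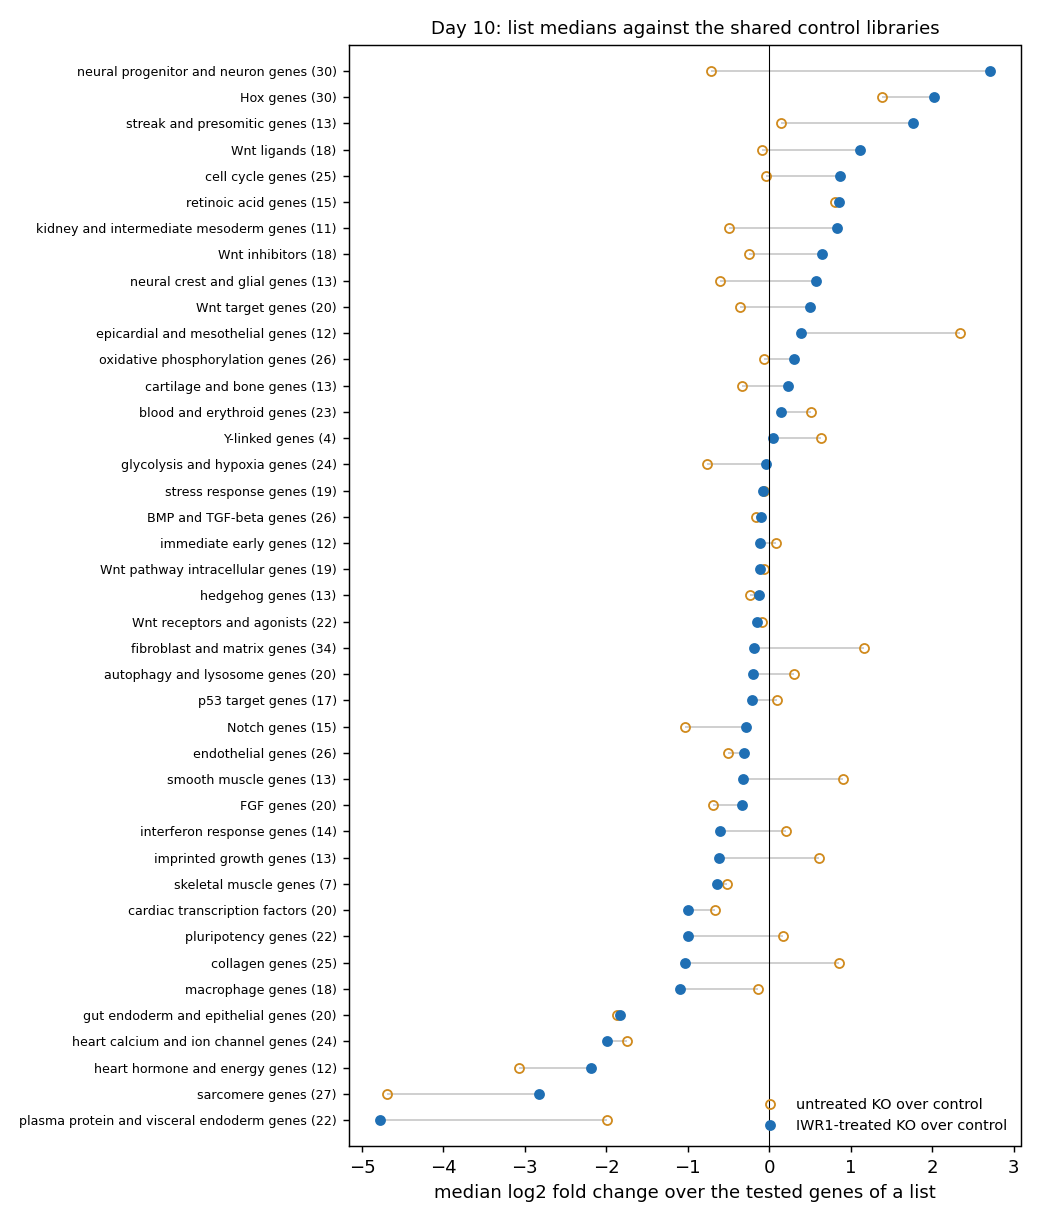
Median log2 fold changes against the shared control libraries are drawn for the tested genes of each of 41 lists, with the number of genes in brackets, filled points for treated KO and open points for untreated KO. Plasma protein and sarcomere genes lie lowest for treated KO, with medians of -4.78 and -2.83, and the neural list has the highest median, 2.71.

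Fewer matrix genes were called higher than control after IWR1 than in untreated KO, and Fap was called higher in both. Of 34 fibroblast and matrix genes, 11 were higher in untreated KO than in control and 0 lower, with a median of 1.16. In the treated libraries 2 were higher (Fap and Mfap4), 4 lower (Lox, Fn1, Postn and Loxl2) and the median was -0.19. Over all genes tested, 1.92% rose and 3.35% fell in untreated KO, and 2.99% rose and 6.13% fell in treated KO. Ogn (ENSMUSG00000021390.6, chromosome 13, 49608046 to 49624501), a small proteoglycan, was at 3.17 and 2.89 CPM in control, 71.1 and 93.8 CPM in the libraries labelled KO and 2.09 and 7.36 CPM in the treated libraries, which straddled control (0.63 ± 0.54, adjusted p = 0.439). Fmod, a collagen-binding proteoglycan, was at 13.3 and 16.3, then 249 and 196, then 3.56 and 23.4 CPM. Ogn and Fmod were lower in treated than in untreated KO (adjusted p = 0.0136 and 0.0274), in the case of Fmod not without KO 1 (0.0539).

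Other matrix genes went below control after IWR1. Lox, the enzyme that crosslinks collagen, was at 80.1 and 57.6 CPM in control, 356 and 385 CPM in the libraries labelled KO and 5.65 and 14.1 CPM in the treated libraries. It was thus higher than control in untreated KO (log2 fold change 2.43, adjusted p = 0.0309) and lower in treated KO (-2.80 ± 0.44, adjusted p = 0.0174). Fibronectin (Fn1) was at 1689 and 2535, then 4567 and 2740, then 274 and 491 CPM, and periostin (Postn) at 692 and 714, then 1323 and 1066, then 96.5 and 189 CPM. Fap, a protease of activated fibroblasts, stayed higher than control, at 4.89 and 8.16 CPM against 0.84 and 0.98 CPM, with 5.02 and 7.0 CPM in the libraries labelled KO. The count of falls was 0 without control 1, 1 without control 2, 2 without treated 1 and 9 without treated 2, and Lox lost its call without control 1 (adjusted p = 0.0712). The rise of Lox in untreated KO was lost without control 1, control 2 or KO 2 (0.142, 0.18 and 0.0826). Postn and Fap lost theirs without control 1 (0.0752 and 0.0856) and control 2 (0.0758 and 0.0686), and Fn1 without control 1, control 2 or treated 1 (0.0689, 0.118 and 0.101).

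Collagen genes had 1 rise (Col26a1) and 1 fall (Col1a1) among 25 and a median of -1.03, against 0.86 in untreated KO. Rises made up 2.99% and falls 6.13% of all genes tested. Col1a1 was at 2519 and 2685 CPM in control, 9824 and 6684 CPM in the libraries labelled KO and 259 and 760 CPM in the treated libraries (log2 fold change -2.35 ± 0.54, adjusted p = 0.0475). Its call was lost without control 1, control 2 or treated 1 (adjusted p = 0.166, 0.177 and 0.097), and the list had 12 falls without treated 2 and 0 without those 3 libraries. The 12 genes of epicardium and mesothelium, the covering of heart and body cavity, had 0 calls by edgeR's quasi-likelihood test, 1 at an unadjusted p under 0.05 and 1 rise by DESeq2, with a median of 0.39. Among them Wt1 was at 8.91 and 12.4 CPM in control, 97.0 and 101 CPM in the libraries labelled KO, and 10.7 and 42.0 CPM in the treated libraries (adjusted p = 0.178).

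The 8 largest rises of untreated KO over control were followed into the treated libraries. Besides Ogn and Fmod they were Lrat, Aspn, Igfbp6, Msln, Prph and Rxfp2. Lrat, the enzyme that stores retinol as esters, was at 0.56 and 0.636 CPM in control, 11.9 and 19.1 CPM in the libraries labelled KO and 0.973 and 2.78 CPM in the treated libraries. Msln, mesothelin, a surface protein of mesothelium, was at 0.373 and 0.741, then 5.39 and 13, then 0.518 and 0.965 CPM. Of the 8 genes, 6 were not called between treated KO and control. Aspn, a small proteoglycan, rose against control in both KO groups, from 0.466 and 0.503 CPM to 9.99 and 14.7 CPM in the libraries labelled KO and 1.8 and 2.67 CPM in the treated libraries. Rxfp2, a receptor of the relaxin family, was at 0.513 and 0.874, then 10.1 and 12.4, then 4.78 and 18.5 CPM. Rxfp2 and Igfbp6 were the 2 of the 8 that were not called between treated and untreated KO (adjusted p = 0.966 and 0.0679). The 8 were chosen by their values in the control libraries and those labelled KO. Comparisons of treated KO with either group are therefore not independent of that choice. The calls of Aspn and Msln against untreated KO did not hold without treated 1, where the log2 fold changes were -2.20 and -3.25. The calls of Aspn and Rxfp2 after IWR1 (adjusted p = 0.0207 and 0.0218) were lost without control 1 (0.144 and 0.124) or control 2 (0.121 and 0.0853). In untreated KO all 8 rises were lost without control 1 (adjusted p of 0.0502 to 0.24), and those of all but Aspn without control 2 (0.0605 to 0.198).

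The 8 largest falls of untreated KO were muscle genes, namely Myh6, Myh7, Xirp1, Ttn, Actc1, Fsd2, Myo18b and Eef1a2. All 8 were also called lower than control after IWR1. Both comparisons used the same control libraries, so these calls are not independent of the choice of genes. Myo18b, a myosin needed for sarcomere assembly, was at 38.2 and 45.7 CPM in control, 0.631 and 0.765 CPM in the libraries labelled KO and 1.86 and 2.78 CPM in the treated libraries. It was above untreated KO (log2 fold change 1.73, adjusted p = 0.0203) and below control (-4.18 ± 0.30, adjusted p = 0.00303). The difference from untreated KO was lost without control 2, KO 1 or KO 2 (0.0505, 0.0716 and 0.0509). Eef1a2, the elongation factor of adult muscle and neurons, was at 36.3 and 30.8, then 0.267 and 0.984, then 1.53 and 2.7 CPM, and lost its call after IWR1 without treated 1 (adjusted p = 0.0514).

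Marker lists of other cell types were counted in the same way. Of 18 macrophage genes 4 fell (Adgre1, Cx3cr1, Itgam and Cd14), against 6.13% of all genes tested, and 0 rose, with a median of -1.09. Of the 18, 16 lay lower in both treated libraries than in both controls, against 33.5% of all genes tested. The summed level was 1316 and 1215 CPM in control, 1033 and 1532 CPM in the libraries labelled KO, and 397 and 774 CPM in the treated libraries. Cx3cr1, the fractalkine receptor of macrophages, fell from 104 and 106 to 26.1 and 40.6 CPM, and its call was lost without control 1 (adjusted p = 0.0823) or control 2 (0.0817). The list had 0 falls without control 1 or 2, 2 without treated 1 and 11 without treated 2. Endothelial genes had 2 falls of 26, in Prox1 and Eng, 0 rises and a median of -0.31. Blood genes had 1 fall of 23, in Gfi1, 0 rises and a median of 0.15. Of the 23, 9 lay higher and 5 lower in both treated libraries than in both controls, against 33.6% and 33.5% of all genes tested. The shares called lower in these lists were near that of all genes. These 3 calls were lost without control 1, control 2 or treated 1, with adjusted p between 0.0614 and 0.174. Hbb-bt, an adult beta globin gene, was at 12.3 and 11.3 CPM in control and 30.4 and 70.2 CPM in the treated libraries and missed the threshold (adjusted p = 0.0503), though it was called in 10 of the 13 alternatives run.

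Pluripotency genes fell in 7 of 22 cases and rose in 1, with a median of -1.0. Over all genes tested, 6.13% fell and 2.99% rose. Tfcp2l1, a factor of naive stem cells and of some epithelia, was at 51.5 and 61.0 CPM in control, 39.2 and 10.2 CPM in the libraries labelled KO and 1.51 and 2.98 CPM in the treated libraries (-4.66 ± 0.71, adjusted p = 0.0154, and 0.0827 without treated 1). Zfp42 fell from 11.1 and 11.3 to 3.95 and 3.8 CPM. Lin28a, an RNA-binding protein of stem and progenitor cells, was the 1 that rose. Without control 1 or 2 the list had 1 fall, and without treated 1 it had 3. The calls of Zfp42 and Lin28a were lost without control 1 (0.095 and 0.209) and control 2 (0.0945 and 0.134), and that of Lin28a without treated 1 (0.0959). Of 13 streak and presomitic genes 2 rose, Gsc and Dll3, and 0 fell. The streak gene T was at 1.59 and 3.18 CPM in control and 23.4 and 10.1 CPM in the treated libraries without a call (adjusted p = 0.0731). Gsc, an organiser and later head mesenchyme factor, rose from 0.723 and 0.741 to 6.71 and 6.59 CPM, and Dll3 lost its call without control 1 (0.0939) or control 2 (0.0795).

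Most listed genes of DNA replication and mitosis lay higher in the treated libraries, though few were called. Of 25 cell cycle genes 6 rose, where 2.99% of all genes tested rose, and 0 fell. Their median log2 fold change was 0.87, against -0.04 in untreated KO. Of the 25, 22 lay higher in both treated libraries than in both controls, a pattern found in 33.6% of all genes tested. With the replicate number as a block, 0 of them rose. Mcm5, a subunit of the replicative helicase, was at 129 and 144 CPM in control, 136 and 136 CPM in the libraries labelled KO and 354 and 266 CPM in the treated libraries (1.19 ± 0.22, adjusted p = 0.024). Cdkn1a, the p53-responsive cell cycle inhibitor, fell from 198 and 162 to 77.2 and 79.8 CPM. It was 1 of 2 falls among 17 p53 targets, with Perp, where 6.13% of all genes tested fell. The list had 0 rises without control 1, control 2 or treated 1, and 13 without treated 2. Without the first 3 the adjusted p of Mcm5 was 0.2, 0.152 and 0.0797, and that of Cdkn1a 0.155, 0.0803 and 0.0774.

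Among 26 oxidative phosphorylation genes 5 fell, and all 5 (mt-Nd1, mt-Nd4, mt-Co1, mt-Cytb and mt-Atp6) are encoded by the mitochondrial genome. All 13 protein-coding genes of that genome were lower in both treated libraries than in both controls, against 33.5% of all genes tested. Of the 13, 11 were called, against 6.13% of all genes tested. mt-Nd4, a subunit of complex I, was at 2076 and 2677 CPM in control, 1408 and 950 CPM in the libraries labelled KO and 140 and 250 CPM in the treated libraries (log2 fold change -3.61 ± 0.41, adjusted p = 0.00699). mt-Co1 fell from 8866 and 10550 to 749 and 1168 CPM. Of the 20 nuclear genes of the list 0 were called, and the list's median was 0.30. Glycolysis and hypoxia genes had 3 falls of 24 (Hk1, Pfkp and Ndrg1), with Pfkp, a phosphofructokinase, at 109 and 73.9 CPM in control and 20.8 and 21.2 CPM in the treated libraries (adjusted p = 0.00728). That list had 1 fall without control 1, control 2 or treated 1.

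The BMP, FGF and hedgehog lists held both rises and falls, and the Notch list had 0 falls. Over all genes tested, 2.99% rose and 6.13% fell. Of 26 BMP and TGF-beta genes 4 rose (Id1, Id3, Nog and Fst) and 4 fell (Bmp5, Bmp7, Bmp10 and Tgfb1). Id3 and Id1, direct BMP targets, rose from 87.4 and 63.5 to 342 and 234 CPM and from 42.3 and 30.0 to 116 and 86.3 CPM, and Fst, an antagonist of activin, from 6.79 and 8.24 to 55.0 and 28.4 CPM. All 3 calls were lost without control 1 or control 2, with adjusted p between 0.0642 and 0.152, and those of the Id genes without treated 1 (0.0531 and 0.0758). The 4 falls numbered 0 without control 1, 0 without control 2, 1 without treated 1 and 0 with the replicate number as a block, and Bmp10 lost its call without control 1 (0.168), control 2 (0.153) or treated 1 (0.1). Notch genes had 3 rises of 15 (Hes5, Lfng and Mfng). Lfng, a glycosyltransferase that tunes Notch receptors, rose from 3.22 and 3.10 to 22.7 and 21.1 CPM (2.79 ± 0.24, adjusted p = 0.00455). Hes5, the Notch target of neural progenitors, rose from 1.12 and 0.344 to 9.81 and 13.8 CPM. Both held without any single library. FGF genes had 1 rise (Fgf15) and 2 falls (Fgf10 and Fgfr4) of 20, shares near those of all genes. Fgf15, a ligand of neural tube, was at 8.05 and 9.06 CPM in control, 1.63 and 4.02 CPM in the libraries labelled KO and 79.5 and 61.4 CPM in the treated libraries, and lost its call without control 1 (0.0774) or control 2 (0.0644). The fall of Fgf10 was lost likewise (0.116 and 0.0931). Hedgehog genes had 2 rises (Boc and Gas1) and 1 fall (Ihh) of 13, with a share of falls near that of all genes. Both rises were lost without control 1 (0.216 and 0.208) and without control 2 (0.142 and 0.169), while the fall of Ihh held under every alternative run.

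Among the remaining lists, smooth muscle genes had 4 falls (Cnn1, Myl9, Synpo2 and Des) and 0 rises of 13, with Myl9, a myosin light chain, at 138 and 127 CPM in control and 25.4 and 29.5 CPM in the treated libraries (-2.27 ± 0.20, adjusted p = 0.00455). The falls numbered 1 without control 1, 1 without control 2 and 2 without treated 1, and the calls of Cnn1, Synpo2 and Des were each lost without control 1 (adjusted p = 0.158, 0.054 and 0.221) and control 2 (0.111, 0.0624 and 0.154). Skeletal muscle genes had 2 rises of 7 tested, 1 of them Pax7, which is also a gene of dorsal neural tube and crest. Pax7 rose from 0.0466 and 0.053 to 2.19 and 6.31 CPM, and its call was lost without control 1 (0.0541). The muscle factors Myod1, Myf5 and Myog did not pass the filter on low counts. Cartilage and bone genes had 2 rises (Cnmd and Dlx5) and 1 fall (Spp1) of 13. Without control 1 all 3 calls were lost (adjusted p = 0.117, 0.0821 and 0.0963), and that of Cnmd was lost without any of the 4 libraries compared (0.0533 to 0.155). The fall of Spp1 was also lost without treated 1 (0.108). Kidney genes had 1 rise of 11 (Six2), imprinted growth genes 1 fall of 13 (Plagl1), stress response genes 1 rise of 19 (Ddit4) and immediate early genes 1 fall of 12 (Zfp36), where 2.99% of all genes tested rose and 6.13% fell. These 4 calls were each lost without control 1, control 2 or treated 1, with adjusted p between 0.0597 and 0.254, and that of Plagl1 also without treated 2 (0.0516). By edgeR's quasi-likelihood test interferon genes (14), autophagy and lysosome genes (20) and the 4 Y-linked genes had 0 calls. An unadjusted p was under 0.05 for 7, 3 and 0 of them, against 31.5% of all genes tested, and DESeq2 called 2, 2 and 0, all lower. The Y-linked genes summed to 14.8 and 16.3 CPM in control and 15.8 and 14.4 CPM in the treated libraries.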

How the data were processed

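RNA-seq of 6 libraries of day 10 (control, KO and IWR1-treated KO, 2 each) was used. Per the submitters' processing notes, the authors' estimated counts come from kallisto 0.46.2 and mm10, and the deposited table holds them as whole numbers. The labels name both a stranded and an unstranded kit, so reads of overlapping or near-identical genes may be shared. All 36047 gene identifiers matched GENCODE vM21, from which symbols and coordinates were taken.

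edgeR 4.0.16 (R 4.3.3) was run with its default expression filter, which left 17022 genes, TMM scaling and the robust quasi-likelihood F test on all 6 libraries, which share 1 estimate of the spread (3 residual degrees of freedom, common biological coefficient of variation 0.248). P-values were adjusted by Benjamini and Hochberg over all tested genes, with a threshold of 0.05. SE was computed as the absolute log2 fold change divided by the root of F. Floors use 3 counts over the group. The test was checked on simulated data with 50 genes changed at each size. The test called 2% of 1.5-fold, 4% of 2-fold, 78% of 4-fold and 88% of 8-fold changes, and made 15 false calls. A gene that was not called may still differ, above all by 2-fold or less.

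The comparison and the 41 gene lists (806 genes, 775 tested) were chosen with earlier results of these data known. A rule named 206 genes: 12 index genes, the 4 of each list with the smallest p, the 12 largest rises and 12 largest falls among called genes at 5 CPM or more in the higher group (pseudogenes and predicted genes passed over), the 8 largest rises and 8 largest falls of untreated KO, and the 8 that differed most, in 1 direction, from both other groups. Another 30 genes, and genes that make up counts of 5 or fewer, were named after their values were seen. Replicate numbers were checked for pairing. Other scalings, filters, DESeq2 1.42.0, a replicate block and left-out libraries were tried. Libraries of days 3 and 5 were not used here. Some named genes are not reported here.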

Additional observations from a re-analysis of the deposited data

How the results depend on the processing

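Without a filter beyond 1 count, and with DESeq2, the genes called between treated KO and control numbered 3093 and 3393 (1217 and 1337 higher, 1876 and 2056 lower), of which 1533 and 1544 were among the 1553 reported. The same settings gave 1737 and 1981 genes for untreated KO against control, and 3697 and 4228 for treated against untreated KO, where the fit of only the 4 libraries compared gave 1001. Leaving out each library in turn gave 280 to 2145 genes between treated KO and control (48 to 796 higher, 232 to 1349 lower), 63 to 1154 for untreated KO against control and 548 to 3056 between the KO groups. Other scalings gave 1546 to 1566 genes and moved the median of all genes from 0.02 to between 0.01 and 0.03 on the log2 scale.

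Replicate numbers showed no uniform pairing across the groups. The differences between replicates correlated across genes at -0.297 between control and KO, 0.242 between control and treated, and -0.322 between KO and treated. With 2 libraries a group, these values cannot settle whether same-numbered libraries belong together. With the replicate number as a block, 948 genes were called between treated KO and control (265 higher and 683 lower, 925 of the 948 among those reported) and 1233 between the KO groups.

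Of 236 named genes 165 were called, 70 of these without any 1 library as well, and 0 of the called genes changed sign under any alternative run. The sign of 8 genes that were not called turned with 1 library left out, over which the log2 fold change ranged from -0.0142 to 1.769 for Lrrn4, -0.5323 to 1.2821 for Ogn and -0.3993 to 0.216 for Foxa2 (turned without treated 2), -0.7034 to 0.2354 for Cyp26c1 (control 1), -0.0019 to 0.2443 for Uty (control 2), -0.0912 to 0.9696 for Msln (control 1 at -0.0147, treated 2), and -0.2257 to 0.2307 for Ddx3y and -2.0491 to 0.6684 for Fmod (control 2 at 0.2307 and 0.0187, treated 1 at 0.1193 and 0.6684). The cause of these shifts was not tested. The 2 libraries a group limit which changes can be detected.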

Other observations

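Processed pseudogenes, copies of transcripts of other genes, also passed the test between treated KO and control, 25 of 731 higher and 6 lower, against 2.99% and 6.13% of all genes tested. Gm2423 had no count in the control libraries and in those labelled KO, and was at 19.3 and 14.1 CPM in the treated libraries. Gm10052 was at 0 and 0.0265 CPM in control and 62.2 and 45.4 CPM in the treated libraries. Gm47924 was at 2.87 and 4.48 CPM in control and had no count in the treated libraries. These levels are uncertain, since estimated counts can divide reads between a pseudogene and its parent gene.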
